A study of Arabidopsis thaliana with 12 samples.

Results

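Whole Arabidopsis thaliana seedlings treated with the synthetic compound DFPM alone were compared with seedlings given solvent. The 6 arrays used were chosen by their titles, 3 named DFPM and 3 named control, out of 12 in the series, and no measured value entered the choice. All seedlings were of the Col-0 ecotype, 12 days old, raised on plates and then moved into 6-well plates. DFPM, whose labelled chemical name joins a dichlorophenyl furan to a piperidine through a thione, was given at 30 µM for 6 h, and the solvent control was DMSO diluted 1:5000 by volume in water, with no duration in its label. The label of the DFPM samples also places the compound 30 min ahead of abscisic acid (ABA), although these samples carry no ABA. The other 6 arrays held ABA at 10 µM, without or with DFPM. Each array measured RNA from whole seedlings, so fewer cells of a type and less RNA per cell cannot be told apart. The labels do not say whether the 3 arrays of a group stem from separate cultures. The p-values cover only the spread among arrays within groups, estimated over all 12 arrays, those with ABA included. Part or all of that spread may be technical.

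DFPM is known as a compound that weakens ABA responses and engages immune signalling through EDS1, a regulator that works with the partner protein SAG101 or PAD4 downstream of intracellular resistance receptors. Plants that sense microbes typically switch on calcium sensors, transcription factors, wall-strengthening peroxidases, lignin enzymes and antimicrobial proteins. Foreign chemicals are handled by enzymes that attach sugar (UDP-glycosyltransferases, UGTs) or glutathione (glutathione transferases, GSTs) to them, and many of these enzymes also act on the plant's own hormones and defence compounds. Growth in a seedling draws on tubulins, wall-loosening enzymes and the hormones auxin, gibberellin and brassinosteroid, and greening draws on the chloroplast's light-harvesting, electron-transport and carbon-fixing machinery.

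Expression is given as the deposited log2 level, a scale on which each unit is a factor of 2. Of 14401 probe sets above a minimum level, 3463 passed the limma test at an adjusted p under 0.05 (24.0%), with 1827 higher after DFPM (12.7%) and 1636 lower (11.4%). These shares are the background against which the members of each gene group are counted below. The median change over all 14401 was -0.08. The median change was 1.45 among the called rises and -1.41 among the called falls, and 171 rises and 26 falls were of at least 4 on the log2 scale. With the array number of the titles as a block in the fit, 6821 probe sets passed (47.4%), with 3008 higher (20.9%) and 3813 lower (26.5%). When arrays 1 and 2, which are near-identical, were averaged in that blocked fit, 3472 passed, 1591 higher and 1881 lower. Of the 37 named genes called with the block only, 12 were also called in the averaged fit. Arrays numbered 1 and 2 resembled each other in both groups (r over probe sets of 0.988 in control and 0.992 with DFPM), whereas number 3 differed from both (r of 0.875 to 0.896 with the others of its group). The count of 3463 was 1981 without control array 2 and 7146 without the arrays numbered 3 of every group. Changes are given ± SE with n = 3 arrays per group, arrays are listed as numbers 1, 2 and 3, and p-values are adjusted over all probe sets tested. Control and DFPM arrays did not overlap in 44.3% of probe sets, with DFPM higher in 21.1% and lower in 23.2%.

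The 3′ minus 5′ differences of 3 control transcripts, a sign of RNA integrity, overlapped between the groups. They ran from 1.03 to 1.29 in control and 1.04 to 1.25 with DFPM for ubiquitin, from 4.86 to 5.30 and 4.86 to 5.05 for actin, and from 1.09 to 1.31 and 0.91 to 1.22 for GAPDH. Of the cell type markers, 2 of 14 for root, 1 of 9 for guard cells and the stomatal lineage and 2 of 4 for mesophyll were measured, and none of 6 for trichome and epidermis or 7 for phloem and xylem had a named probe set. CLV3, the 1 meristem gene of 4 with a named probe set, lay at the bottom of the scale, 2.14, in both groups.

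More defence genes rose than fell after DFPM, and most did not pass. Of 74 genes matched by name to the defence lists 58 were measured, meaning that they passed the minimum level, and 15 of these rose, 5 fell and 38 did not pass, with a median change of 0.73 beside -0.08 for all probe sets. With the block 25 were higher and 9 lower, and 17 were higher when arrays 1 and 2 were averaged in it. Within array numbers 1, 2 and 3 the median was 0.76, 0.93 and 0.52. Without the arrays numbered 3, 30 were higher.

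A chitinase, a defensin and a peroxidase gene had the largest rises among them. Of 2 measured chitinase genes 1 rose and 1 did not pass, also with the block. CHI, a chitinase gene, stood at 2.81, 2.59 and 6.90 in the control arrays and at 11.01, 11.08 and 12.78 after DFPM. The groups did not overlap, and array number 3 was the highest of each group. LCR67, the gene of a plant defensin (a small antimicrobial protein), went from 2.17, 2.16 and 3.41 to 7.69, 7.14 and 9.39, a change of 5.50 ± 0.62 (adjusted p = 4.17e-04). PRX52, a class III peroxidase of the cell wall, lay at 2.17 on all 3 control arrays, which is near the bottom of the scale, and at 8.66, 8.76 and 8.95 after DFPM. Where the lower level lies under log2 4, as for these 3 genes in most control arrays, the background correction sets the value, and the size of a change is less certain than its direction. A gene with every control array under log2 4 passed the minimum level only through other arrays, so a fall could hardly be seen in it. That holds for LCR67 and PRX52, and below for JRG21, UGT73C7, BGLU27, AT1G26410 and AT1G07690, among others. The counts of rises include such genes.

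The same lists held members that moved the other way. Of 8 measured defensin genes 1 rose, 2 fell and 5 did not pass. LCR69, another defensin gene, was 12.59, 12.57 and 12.61 in control and 10.98, 11.09 and 9.51 after DFPM, a change of -2.07 ± 0.39 (adjusted p = 0.0051), with every DFPM array below every control array. LCR68 changed by -1.64 and lost its call when any of 9 single arrays was left out (adjusted p up to 0.135). PDF2.5 changed by -1.36 and PDF1.4 by 2.34, each called with the block only (adjusted p = 0.0025 and 0.0354). Among 5 peroxidase genes PRXR1 fell by 1.78 ± 0.47 (adjusted p = 0.0217), a call that ended without control array 3 or DFPM array 1 or 2 (adjusted p up to 0.0639). The peroxidase genes Prx37 (2.30) and PRX72 (AT5G66390, 1.85) were called with the block only (adjusted p = 0.0083 and 1.88e-04), as was the osmotin gene OSM34 (1.67, adjusted p = 0.0046). PR-1-LIKE, a relative of the pathogenesis-related gene PR1, fell by 1.63 ± 0.37 (adjusted p = 0.0117), from 6.76, 6.76 and 5.56 to 5.10, 4.80 and 4.29, a call that ended without control array 2 (adjusted p = 0.0502).

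**Figure D1:**
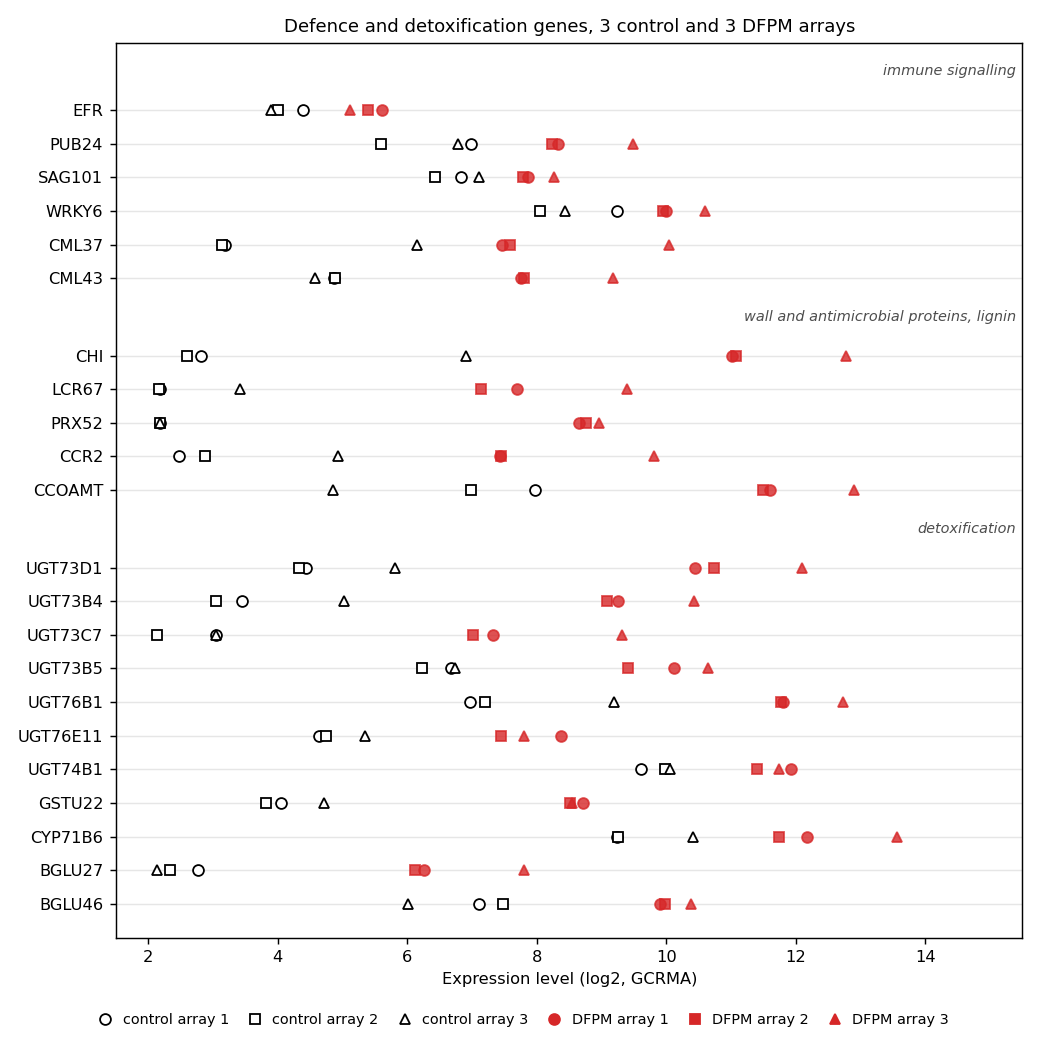
Log2 expression level (horizontal axis) of 22 defence and detoxification genes on each of the 3 control arrays (open black symbols) and 3 DFPM arrays (filled red symbols), with circles, squares and triangles for array numbers 1, 2 and 3. In each of the 22 genes every DFPM array lies above every control array, and for PRX52 the 3 control arrays sit together at 2.17.

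Lignin and phenylpropanoid genes gave both directions. CCOAMT, a caffeoyl-CoA methyltransferase gene, was 7.97, 6.99 and 4.85 in control and 11.60, 11.50 and 12.90 after DFPM, a change of 5.40 ± 0.77 (adjusted p = 0.0012). CCR2, a cinnamoyl-CoA reductase gene of monolignol synthesis, rose by 4.81 ± 0.82 (adjusted p = 0.0031), from 2.48, 2.87 and 4.92 to 7.44, 7.45 and 9.81. Both sets of arrays were apart in both genes, and array number 3 was the extreme of the control group in each, lowest for CCOAMT and highest for CCR2. UGT72E1, whose product attaches glucose to monolignol precursors, fell by 1.72 ± 0.40 (adjusted p = 0.0125), from 11.40, 11.10 and 10.95 to 10.03, 9.82 and 8.44. AT3G13610, the F6'H1 gene of scopoletin synthesis, changed by 2.94 ± 1.22 and was called with the block only (adjusted p = 0.0013). Of the 8 measured members 2 rose, 1 fell and 5 did not pass.

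A few immune signalling genes rose, and most of those measured did not pass. EFR, the receptor gene for bacterial elongation factor Tu, was 4.39, 4.00 and 3.90 in control and 5.61, 5.40 and 5.11 after DFPM, so all DFPM arrays lay above all control arrays. PUB24, a ubiquitin ligase gene known to dampen pattern-triggered immunity, rose by 2.23 ± 0.46 (adjusted p = 0.0075), from 6.98, 5.59 and 6.78 to 8.33, 8.23 and 9.48. Its relatives PUB23 and PUB22 gave 1.22 (adjusted p = 0.0729, 0.0125 with the block) and 0.48, and the receptor-linked kinase gene BIK1 gave 0.79, so 2 of 5 measured genes of this list passed and all 5 changes were positive, where 54.1% of all probe sets had a negative change. SAG101, the gene of an EDS1 partner, was 6.82, 6.43 and 7.10 in control and 7.87, 7.78 and 8.27 after DFPM. The glutaredoxin gene GRX480, whose product binds TGA factors, stood at 4.27, 4.66 and 7.73 and then at 8.69, 8.71 and 11.28, and its call ended when any of 7 single arrays was left out (adjusted p up to 0.128). WRKY6, a transcription factor of senescence and defence, rose by 1.60 ± 0.31 (adjusted p = 0.0059), from 9.24, 8.06 and 8.43 to 9.99, 9.95 and 10.59. It was the 1 of 6 measured WRKY genes that passed, WRKY53 gave 1.2, and 3 of the 6 changes were negative, with WRKY20 at -0.66 called lower with the block (adjusted p = 0.0255).

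Calmodulin-like (CML) proteins sense calcium, and 3 of 8 measured genes rose and 0 fell, or 4 and 0 with the block and also at an unadjusted p under 0.05. CML37 was 3.18, 3.14 and 6.16 in control and 7.47, 7.59 and 10.04 after DFPM, a change of 4.21 ± 0.94 (adjusted p = 0.0111). CML43 rose by 3.48 ± 0.72 (adjusted p = 0.0075), from 4.86, 4.88 and 4.57 to 7.76, 7.80 and 9.18. CML41 went from 7.04, 6.70 and 8.45 to 11.49, 11.36 and 8.99. In the first 2 genes the DFPM array numbered 3 was the highest, whereas in CML41 it was the lowest of its group, and the call of CML41 ended without control array 1 or 2 or DFPM array 1 or 2 (adjusted p up to 0.0779). CML38 gave 1.41 (adjusted p = 0.0519, 4.53e-04 with the block).

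Of 6 measured jasmonate genes 0 passed the limma test, beside 3 with the block and 3 at an unadjusted p under 0.05. JRG21, a jasmonate-regulated gene, gave 4.45 ± 1.53 (adjusted p = 0.0593, 0.0277 with the block), from 3.53, 3.43 and 2.56 to 6.31, 5.63 and 10.93, and the DFPM array numbered 3 was far above the other two. OPCL1, a ligase gene of jasmonate synthesis, gave 1.06, and MYC4, a transcription factor of the pathway, gave -1.05 (adjusted p = 0.0193 and 0.0435 with the block). Hsp70-2, a heat shock protein gene, rose by 3.01 ± 0.41 (adjusted p = 9.68e-04), from 8.93, 9.22 and 8.48 to 11.81, 12.17 and 11.67. It was the 1 of 4 measured oxidative stress and heat shock genes that passed, and STZ, a zinc finger gene of stress responses, gave 1.06 (adjusted p = 0.0184 with the block).

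Detoxification genes gave many rises in some families and few in others. Of 149 matched genes 107 were measured, of which 24 rose, 7 fell and 76 did not pass, with a median change of 0.17. With the block 40 were higher and 26 lower, and 27 were higher when arrays 1 and 2 were averaged in it. The median within array numbers 1, 2 and 3 was 0.25, 0.18 and -0.04, and 43 members were higher without the arrays numbered 3.

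UGT genes made up 14 of the 24 rises. Of 38 measured, 14 rose, 1 fell (UGT72E1) and 23 did not pass, with changes from -1.75 to 6.23 and a median of 0.66. With the block 19 were higher and 7 lower, and at an unadjusted p under 0.05 these counts were 15 and 5. In the UGT73 group 4 of 6 measured genes rose (6 with the block), with a median of 4.33. With low values set to a floor of log2 4 the median was 3.70. UGT73D1 was 4.44, 4.33 and 5.81 in control and 10.44, 10.74 and 12.09 after DFPM. UGT73C7 rose by 5.15 ± 0.70 (adjusted p = 9.76e-04), from 3.04, 2.14 and 3.04 to 7.33, 7.02 and 9.31. The same pattern was seen in UGT73B4, at 3.44, 3.04 and 5.02 and then 9.25, 9.08 and 10.43, and in UGT73B5, at 6.67, 6.23 and 6.74 and then 10.12, 9.41 and 10.64. In all 4 genes the arrays of the groups did not overlap and the DFPM array numbered 3 was the highest. UGT73C1 and UGT73B1 gave 1.05 and 1.06 and were called with the block only (adjusted p = 0.0457 and 0.0389).

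In the UGT76 group 5 of 6 measured genes rose and 0 fell, with a median of 3.05, or 1.99 with low values set to the floor. With the block and at an unadjusted p under 0.05, 5 were higher and 1, UGT76C1, was lower. UGT76B1, whose product glucosylates isoleucic and salicylic acid and so tunes defence, was 6.96, 7.19 and 9.20 in control and 11.81, 11.77 and 12.73 after DFPM, a change of 4.32 ± 0.88 (adjusted p = 0.0070). UGT76E11 rose by 2.97 ± 0.32 (adjusted p = 3.40e-04), from 4.64, 4.74 and 5.34 to 8.37, 7.45 and 7.80. UGT76D1 and UGT76E12 rose by 3.37 ± 0.63 and 3.13 ± 0.38 (adjusted p = 0.0049 and 6.06e-04). UGT76C2, whose product glucosylates cytokinins, rose by 0.92 ± 0.21 (adjusted p = 0.0126). The groups did not overlap in any of these 5 genes.

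Among other UGT genes that rose, some act on hormones or on glucosinolates, the sulphur-rich defence compounds of the cabbage family. IAGLU, which attaches glucose to the auxin indole-3-acetic acid, was 7.11, 6.49 and 7.56 in control and 9.86, 9.45 and 10.49 after DFPM, a change of 2.88 ± 0.63 (adjusted p = 0.0101). UGT71B6, an ABA glucosyltransferase gene, rose by 1.94 ± 0.35 (adjusted p = 0.0041), from 6.13, 5.53 and 5.70 to 7.92, 7.76 and 7.50. UGT74B1, an enzyme of glucosinolate synthesis, rose by 1.81 ± 0.23 (adjusted p = 6.48e-04), from 9.61, 9.98 and 10.05 to 11.92, 11.41 and 11.74. UGT87A2 rose by 1.41 ± 0.18 (adjusted p = 7.61e-04). Again each of these 4 genes had all DFPM arrays above all control arrays. In the UGT71 group as a whole 2 of 7 rose with a median of 0.08, and 0 of 3 measured UGT85 genes passed, beside 2 with the block and 1 at an unadjusted p under 0.05.

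Glutathione transferase genes did not move together. Of 10 measured 1 rose, 2 fell and 7 did not pass, with a median of -0.35. GSTU22 was 4.05, 3.82 and 4.71 in control and 8.71, 8.51 and 8.55 after DFPM, so its arrays lay close together in each group and far apart between them. GSTU25 was 2.59, 3.18 and 5.12 and then 6.37, 6.18 and 9.44, with the array numbered 3 high in both groups, and its change of 3.70 ± 1.22 passed with the block only (adjusted p = 0.0514 without it and 2.45e-05 with it). GSTU18 fell from 6.84, 7.08 and 6.11 to 4.94, 5.13 and 2.18 (-2.60 ± 0.70, adjusted p = 0.0242), a call that ended without control array 1 or 2 (adjusted p up to 0.0842). GSTU20 fell from 4.46, 5.06 and 7.32 to 3.33, 3.59 and 3.32 (-2.20 ± 0.58, adjusted p = 0.0222), a call that ended without DFPM array 1 or 3 (adjusted p up to 0.0604). No array overlapped between the groups in these 4 genes.

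Further detoxification families were called in few members, at shares near or below those of all probe sets. The share higher was 8.3%, 7.7% and 14.3% in the P450, carbonyl and glutathione lists below, beside 12.7% of all probe sets. The share lower was 8.3%, 7.7% and 0%, beside 11.4%. Of 12 measured cytochrome P450 genes CYP71B6, linked to the metabolism of indole-3-acetonitrile, rose by 2.86 ± 0.58 (adjusted p = 0.0067), from 9.24, 9.25 and 10.42 to 12.18, 11.75 and 13.57. CYP718 was the 1 that fell (-2.37), and it lost its call when any of 7 single arrays was left out (adjusted p up to 0.130). Of 13 genes in the list for reactive carbonyl enzymes, SDRB rose by 0.86 ± 0.18 (adjusted p = 0.0073) and the aldehyde dehydrogenase gene ALDH10A8 fell by 0.83 ± 0.18 (adjusted p = 0.0090). That list was matched by name, and whether each member, SDRB included, acts on such compounds was not tested. Among 14 glutathione, thioredoxin and glutaredoxin genes, GRX480 and GRXC1 were the 2 called, and the change of GRXC1, 0.73, lost its call without control array 2 or 3 or DFPM array 1 or 2 (adjusted p up to 0.0690). With the block the counts higher and lower were 2 and 3 for the P450 list, 3 and 4 for the carbonyl list and 5 and 4 for the glutathione list. The 1 measured ABC transporter gene (ATATH8, -1.61) and the 1 measured MATE carrier gene (AT5G52050, 1.13) passed with the block only (adjusted p = 0.0146 and 0.0031).

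Beta-glucosidases remove sugar, the reverse of what UGTs do. Of 16 measured beta-glucosidase and carboxylesterase genes 4 rose, 2 fell and 10 did not pass. BGLU27 was 2.76, 2.33 and 2.14 in control and 6.26, 6.12 and 7.80 after DFPM, a change of 4.32 ± 0.39 (adjusted p = 1.31e-04). From so low a control level a fall could hardly be seen. BGLU45 and BGLU46, which act on monolignol glucosides, rose by 3.47 ± 0.83 and 3.22 ± 0.58 (adjusted p = 0.0143 and 0.0041). The levels of BGLU46 were 7.11, 7.47 and 6.00 and then 9.90, 9.97 and 10.38. BGLU44 fell by 1.79, a call that ended without control or DFPM array 3 (adjusted p up to 0.0771).

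More growth genes fell than rose, and most did not pass. Of 139 matched genes 74 were measured, of which 22 fell, 5 rose and 47 did not pass, with a median change of -0.77 and with -0.54, -0.79 and -0.80 within array numbers 1, 2 and 3. With the block 39 were lower and 7 higher, and 25 were lower when arrays 1 and 2 were averaged in it. The growth lists include 4 measured genes of methionine-derived glucosinolates, which are defence compounds, and without these 20 of 70 fell and 5 rose, with a median of -0.75. Without control array 2 the count of members lower was 14, and without the arrays numbered 3 it was 40.

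Of 7 measured genes of tubulins, the subunits of microtubules, 5 fell and 0 rose, or 6 and 1 with the block and also at an unadjusted p under 0.05. Of 5 measured beta-tubulin genes 4 fell, and of 2 alpha-tubulin genes 1 fell. TUB5 was 10.17, 10.43 and 10.13 in control and 8.01, 7.73 and 7.96 after DFPM, a change of -2.34 ± 0.17 (adjusted p = 4.61e-05), or 5.06-fold lower. TUB6 fell by 1.66 ± 0.19 (adjusted p = 5.06e-04), from 10.18, 10.42 and 10.36 to 8.73, 8.44 and 8.82. TUB7 fell by 1.83 ± 0.40 (adjusted p = 0.0096), from 8.07, 8.44 and 9.34 to 6.38, 6.33 and 7.65. The groups did not overlap in any of these 3 genes, and the 3 arrays of each group lay close together in TUB5 and TUB6. TUA6, an alpha-tubulin gene, fell by 0.81 ± 0.17 (adjusted p = 0.0090). TUB9 fell by 0.74, a call that ended without control array 2 or DFPM array 2 or 3 (adjusted p up to 0.0681). TUB1 gave -2.43 and TUA1 0.85, called with the block only (adjusted p = 2.31e-04 and 0.0166). Tubulin genes are a family of near-identical sequences, and probes of one may bind RNA of another. ATMAP65-6, the gene of a microtubule-associated protein, fell by 1.33 ± 0.25 (adjusted p = 0.0054).

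**Figure D2:**
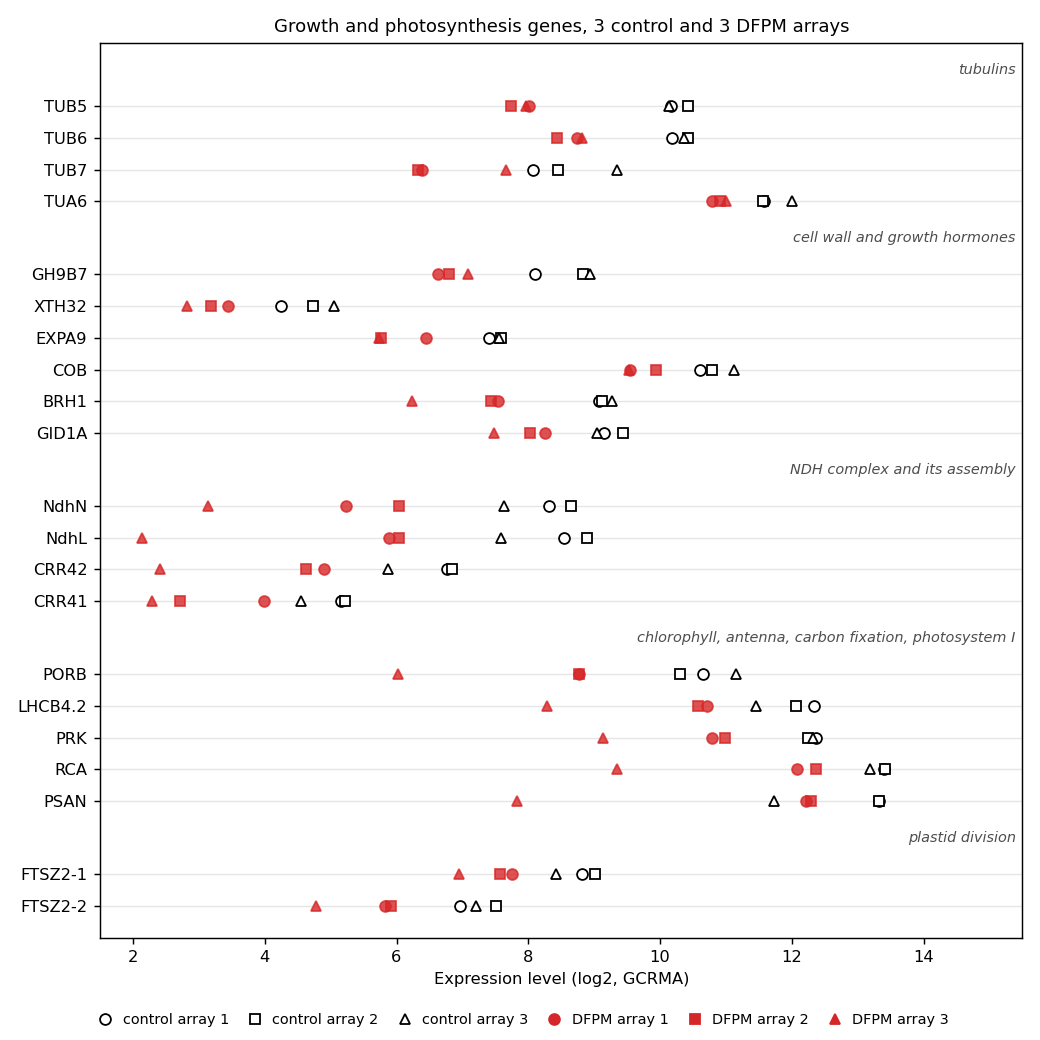
Log2 expression level (horizontal axis) of 21 growth and photosynthesis genes on each of the 3 control arrays (open black symbols) and 3 DFPM arrays (filled red symbols), with circles, squares and triangles for array numbers 1, 2 and 3. For TUB5, TUB6 and TUA6 the arrays of a group lie close together, while from NdhN down to PSAN the DFPM array numbered 3 lies below the other DFPM arrays, for PSAN at 7.82 beside 12.22 and 12.28.

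Wall-loosening genes fell more often than they rose among those that passed, while wall-building genes were called about as often as all probe sets. Of 10 measured xyloglucan endotransglucosylase and wall hydrolase genes 3 fell and 0 rose, with a median of -1.50, or 6 and 1 with the block and also at an unadjusted p under 0.05. With low values set to a floor the median was -1.03. GH9B7, a gene of the endoglucanase family, was 8.10, 8.83 and 8.94 in control and 6.63, 6.79 and 7.08 after DFPM, a change of -1.79 ± 0.34 (adjusted p = 0.0049). XTH32 fell by 1.53 ± 0.28 (adjusted p = 0.0042), from 4.25, 4.74 and 5.05 to 3.45, 3.18 and 2.81. These DFPM levels lay under log2 4, so the size of its change is less certain. XTH16 fell by 2.48, a call that ended without control array 1 or 2 or any DFPM array (adjusted p up to 0.103). COB (COBRA), which directs oriented cell expansion, fell by 1.17 ± 0.20 (adjusted p = 0.0027), from 10.61, 10.79 and 11.12 to 9.55, 9.93 and 9.52. Of 22 measured cellulose synthase-like and wall structural genes, COB among them, 3 fell (13.6%) and 2 rose (9.1%), with a median of -0.27. The shares over all probe sets were 11.4% and 12.7%, and with the block 7 of the 22 were lower and 2 higher. Of 3 measured pectin-modifying genes 0 passed by limma, beside 1 at an unadjusted p under 0.05 and 2 lower with the block, PMEPCRF (-0.94, adjusted p = 0.0272) and ATPMEPCRD (-0.67, adjusted p = 0.0406).

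Expansins loosen the wall as cells enlarge, and 2 of 9 measured genes fell and 1 rose. EXPA9 fell by 1.54 ± 0.29 (adjusted p = 0.0047), from 7.40, 7.58 and 7.56 to 6.44, 5.76 and 5.73. EXLB1, an expansin-like gene, rose by 2.06 ± 0.44 (adjusted p = 0.0086), from 8.47, 8.21 and 9.65 to 10.82, 10.91 and 10.79. The groups were apart in both. The other gene that fell, EXPA18, is a root hair marker, and its change of -1.17 lost its call without control array 2 or 3, DFPM array 1 or 2 or ABA array 1 (adjusted p up to 0.0996). The mean log2 level of the 2 measured root markers, EXPA7 and EXPA18, ran from 7.39 to 7.61 in control and from 6.34 to 6.86 after DFPM, and whether a change in root tissue had a part in the falls of growth genes was not tested.

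Hormone genes of the growth lists changed in both directions. Of 5 measured auxin genes 1 rose and 2 fell, and of 5 gibberellin, brassinosteroid and cytokinin genes also 1 rose and 2 fell. GH3.3, an enzyme gene that conjugates auxin to amino acids, was 5.59, 5.89 and 4.79 in control and 9.48, 8.74 and 9.89 after DFPM. GH3.17, of the same family, fell by 2.17 ± 0.69 (adjusted p = 0.0449), from 5.05, 5.18 and 7.57 to 3.12, 3.12 and 5.06, and its call ended when any of 10 single arrays was left out (adjusted p up to 0.127). The arrays of GH3.3 did not overlap, whereas the DFPM array numbered 3 of GH3.17 reached the level of the first control array. HAT2, an auxin-responsive homeobox gene, fell by 0.76 (adjusted p = 0.0260), a call that ended without control array 2 or 3 or DFPM array 1 (adjusted p up to 0.0851). WES1, also of the GH3 family, gave -2.48 and was called with the block only (adjusted p = 0.0056). GID1A, a gibberellin receptor gene, fell by 1.29 ± 0.26 (adjusted p = 0.0066), from 9.14, 9.44 and 9.04 to 8.26, 8.03 and 7.48. GID1B, another receptor gene of the same hormone, rose by 0.79 ± 0.24 (adjusted p = 0.0363), from 8.61, 8.42 and 9.10 to 9.40, 9.29 and 9.82. That call ended when any of 6 single arrays was left out (adjusted p up to 0.131). GID1C, the remaining receptor gene, gave -0.28 and did not pass. BRH1, a brassinosteroid-responsive RING finger gene, fell by 2.09 ± 0.40 (adjusted p = 0.0055), from 9.08, 9.13 and 9.27 to 7.54, 7.43 and 6.23. RR16, a cytokinin response regulator gene, gave -0.93 (adjusted p = 0.0243 with the block).

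Of 4 measured genes of methionine-derived glucosinolates 2 fell and 0 rose, also with the block and at an unadjusted p under 0.05. BCAT4, the aminotransferase gene at the entry to this pathway, was 6.52, 7.35 and 8.66 in control and 2.28, 2.15 and 2.34 after DFPM, near the bottom of the scale on every DFPM array. GTR1, a glucosinolate transporter gene, fell by 1.68 ± 0.29 (adjusted p = 0.0034), from 8.47, 7.99 and 8.67 to 7.07, 6.31 and 6.71. The other two measured, among them GTR2 at -0.78, did not pass.

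More nuclear genes of photosynthesis and the plastid fell than rose, most did not pass, and the median change differed between array numbers. Of 41 matched genes 37 were measured, of which 11 fell, 1 rose and 25 did not pass, and the median change was -1.72. Within array numbers 1, 2 and 3 the median was -1.10, -1.27 and -3.01, and 32 of the 37 were negative within all 3 numbers, where 39.3% of all probe sets were. With the block 29 were lower and 1 higher, and 16 were lower when arrays 1 and 2 were averaged in it. The count of members lower was 29 without the arrays numbered 3 of every group, 7 without DFPM array 3 alone, 18 without ABA+DFPM array 3 and 4 without control array 2. The mean log2 level of the 2 measured mesophyll markers, RCA and LHCB4.1, ran from 13.96 to 14.48 in control and from 10.52 to 13.54 after DFPM, lowest on DFPM array 3, and their part in the other falls was not tested.

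The chloroplast NDH complex, which cycles electrons around photosystem I, gave the largest falls in this group of genes. Of 6 measured subunit and assembly genes 5 fell, with a median of -2.31. NdhN was 8.31, 8.64 and 7.62 in control and 5.24, 6.04 and 3.15 after DFPM, a change of -3.38 ± 0.62 (adjusted p = 0.0043). NdhL fell by 3.65 ± 1.00 (adjusted p = 0.0253), from 8.54, 8.90 and 7.58 to 5.88, 6.04 and 2.14, a call that ended without control array 1 or 2 (adjusted p up to 0.0867). CRR42, a gene required for NDH accumulation, fell by 2.51 ± 0.59 (adjusted p = 0.0134), and its call ended without control array 2 (adjusted p = 0.0527). CRR41 fell by 1.97 ± 0.48 (adjusted p = 0.0149), a call that ended without control array 2 or DFPM array 3 (adjusted p up to 0.0567). CRR21, an RNA editing factor gene, changed by -2.11 (adjusted p = 0.0404) and lost its call when any of 9 single arrays was left out (adjusted p up to 0.135). NdhS gave -1.21 (adjusted p = 0.0268 with the block). In NdhN, NdhL and CRR42 no DFPM array reached the control arrays, and DFPM array 3 was the lowest.

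Of 5 measured antenna genes and 4 of the Calvin cycle and photorespiration 0 passed the limma test, beside 4 and 4 with the block and 3 and 3 at an unadjusted p under 0.05. PRK, the phosphoribulokinase gene of the Calvin cycle, was 12.36, 12.25 and 12.32 in control and 10.79, 10.98 and 9.13 after DFPM, a change of -2.01 ± 0.67 (adjusted p = 0.0549, 0.0115 with the block). SBPASE, another Calvin cycle gene, went from 11.46, 11.60 and 10.92 to 9.78, 9.88 and 6.26 (-2.69 ± 1.00, adjusted p = 0.0765, 0.0096 with the block). LHCB4.2, an antenna protein gene of photosystem II, went from 12.34, 12.06 and 11.45 to 10.71, 10.58 and 8.28 (-2.09 ± 0.74, adjusted p = 0.0656, 0.0035 with the block). HPR, a photorespiration gene, gave -2.55 (adjusted p = 0.184, 0.0184 with the block). The antenna-like genes LIL3:1 and LIL3:2 gave -2.28 and -2.0 (adjusted p = 0.0095 and 0.0028 with the block). In PRK, SBPASE and LHCB4.2 the groups did not overlap and array number 3 differed the most. Within numbers 1, 2 and 3 the difference was -1.57, -1.27 and -3.19 for PRK, -1.68, -1.73 and -4.66 for SBPASE, and -1.62, -1.48 and -3.17 for LHCB4.2. All 4 measured Calvin cycle and photorespiration genes had every DFPM array below every control array, which held for 23.2% of all probe sets. PSAN, a photosystem I subunit gene, gave -2.02 (adjusted p = 0.301, 0.0234 with the block), and its control array 3, at 11.73, lay below DFPM arrays 1 and 2.

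Among 11 measured genes of chlorophyll and carotenoid synthesis 2 fell and 1 rose, or 7 and 1 with the block. PORB, the protochlorophyllide oxidoreductase gene, was 10.66, 10.31 and 11.15 in control and 8.77, 8.77 and 6.03 after DFPM, a change of -2.85 ± 0.72 (adjusted p = 0.0183), and its call ended without control array 3 (adjusted p = 0.0502). AT1G74470, the geranylgeranyl reductase gene, changed by -1.95 (adjusted p = 0.0454) and lost its call when any of 9 single arrays was left out (adjusted p up to 0.135). HEMA2, a gene of glutamyl-tRNA reductase at the start of the pathway, rose by 1.47 ± 0.32 (adjusted p = 0.0093), from 7.89, 7.64 and 6.65 to 8.74, 8.83 and 9.02. Its DFPM arrays lay above all control arrays, opposite to PORB.

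Genes for dividing plastids and folding their proteins fell in 4 of 5 measured. FTSZ2-1, a gene of the plastid division ring, was 8.81, 9.01 and 8.42 in control and 7.75, 7.57 and 6.95 after DFPM, a change of -1.32 ± 0.24 (adjusted p = 0.0038). FTSZ2-2 fell by 1.72 ± 0.29 (adjusted p = 0.0031), from 6.96, 7.51 and 7.20 to 5.82, 5.92 and 4.78. The arrays did not overlap in either gene. Cpn60beta4, a plastid chaperonin gene, fell by 2.71 ± 0.64 (adjusted p = 0.0141), and its call ended without control array 2 (adjusted p = 0.0513). Cpn60beta2 fell by 1.54, a call that ended without control array 2 or 3 or DFPM array 3 (adjusted p up to 0.0796).

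Genes encoded in the plastid itself changed less. Of 68 measured 4 were called lower and 0 higher, with a median of -0.52. With the block 28 were lower and 0 higher, and at an unadjusted p under 0.05 these counts were 12 and 0. The 4 were rps16, rpl22, rps19 and cemA, at -1.11, -0.90, -0.72 and -0.61, and each lost its call without DFPM array 3, control array 2 or at least 1 other array (adjusted p up to 0.147). The photosystem I genes had a median of -0.19 and the photosystem II genes one of -0.28, and of these 5 and 15 genes 0 passed the limma test, beside 0 and 5 with the block and 0 and 3 at an unadjusted p under 0.05. The gene of the large rubisco subunit, rbcL, went from 9.30, 9.96 and 10.35 to 9.08, 9.16 and 8.38, a change of -1.0 (adjusted p = 0.0745, 0.0467 with the block). Plastid RNA mostly lacks a poly(A) tail, and how well these probe sets follow its amount was not tested.

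**Figure D3:**
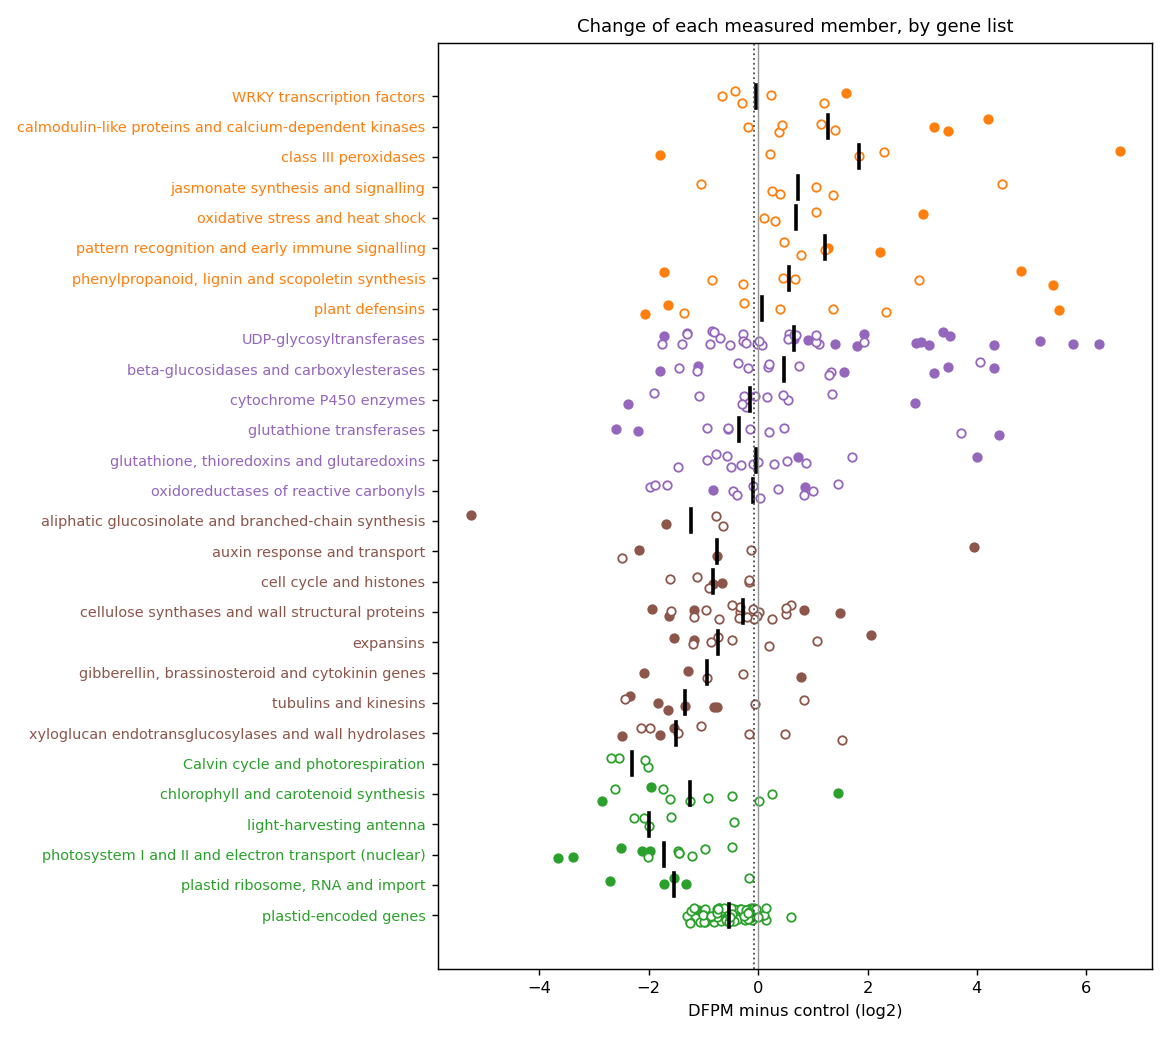
Change after DFPM (DFPM minus control, log2, horizontal axis) of each measured member of the gene lists with at least 4 measured members, coloured orange for defence, purple for detoxification, brown for growth and green for photosynthesis. Filled points passed the limma test at an adjusted p under 0.05, open points did not, black bars are list medians and the dotted line is the median of all probe sets, -0.08. UDP-glycosyltransferases reach 6.23, and all 4 genes of the Calvin cycle list are open points between -2.69 and -2.01.

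**Figure D4:**
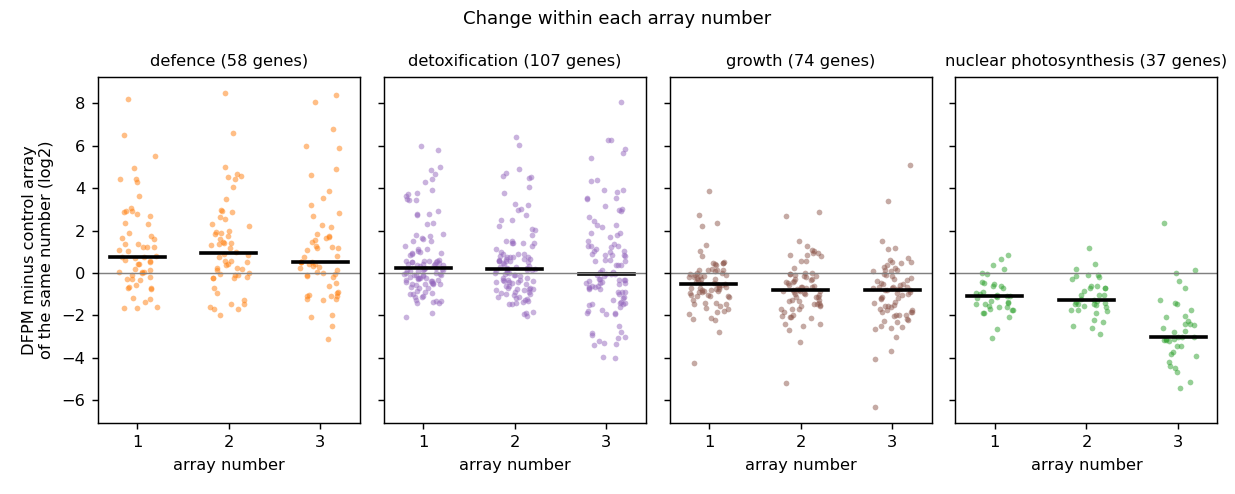
DFPM minus control difference within each array number (horizontal axis, 1 to 3) on the log2 scale, with 1 point per measured gene of the defence (58), detoxification (107), growth (74) and nuclear photosynthesis lists (37) and a black bar at the median. The photosynthesis median is -1.10, -1.27 and -3.01 in numbers 1, 2 and 3, while the growth median is -0.54, -0.79 and -0.80.

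Several genes outside these lists changed by large amounts. STOMAGEN, the gene of a peptide that promotes stomata, was 7.72, 8.15 and 6.28 in control and 4.27, 4.76 and 2.91 after DFPM, a change of -3.40 ± 0.64 (adjusted p = 0.0049). DPE1, the gene of a plastid enzyme of starch breakdown, fell by 2.42 ± 0.53 (adjusted p = 0.0099), from 8.71, 9.17 and 8.01 to 6.81, 6.80 and 5.02. TAAC, a chloroplast ATP/ADP carrier gene, rose by 3.22 ± 0.44 (adjusted p = 9.76e-04), from 6.54, 6.74 and 7.38 to 10.20, 10.07 and 10.04. These 3 genes were picked among called genes with non-overlapping groups, so their lack of overlap follows from that choice. TAAC went the opposite way to most plastid genes. Many of the steepest changes belonged to genes known here by locus code only, 19 of the 25 largest rises and 20 of the 25 largest falls, and in 15 of those rises the control mean lay under log2 4. AT1G26410 was 3.25, 2.38 and 3.05 in control and 9.28, 9.07 and 10.51 after DFPM, and AT5G48490 was 7.83, 8.10 and 7.60 and then 4.87, 4.29 and 2.64.

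Of 12 measured genes that ABA is known to induce, 3 were called lower and 0 higher after DFPM alone, with a median of -0.34. At an unadjusted p under 0.05 the counts were the same, while with the block 4 were lower and 1 higher. The median was -0.03 with low values set to a floor, and -0.28, 0.01 and -0.66 within array numbers 1, 2 and 3. COR15B, a gene of a chloroplast protein that protects membranes in the cold, was 5.54, 4.78 and 5.76 in control and 3.35, 3.07 and 3.34 after DFPM. Its DFPM arrays all lay under log2 4, where the size of a change is less certain than its direction. COR47, a dehydrin gene, was 11.94, 12.00 and 12.40 and then 11.28, 11.37 and 10.59. Every DFPM array lay below every control array in both genes.

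The arrays given ABA offer a second measure of the compound, ABA+DFPM against ABA, which shares no array with the comparison above though it shares the array numbers. In it 1814 probe sets passed (12.6%), 956 higher (6.64%) and 858 lower (5.96%), or 4486 with the block, and the count was 945 and 904 without ABA arrays 1 and 2. Of the 3463 probe sets called without ABA, 3364 (97.1%) had the same sign with ABA present, beside 83.2% of all 14401. In all, 1367 were called with the same sign in both, which is 39.5% of the calls without ABA and 75.4% of those with it, and 0 were called in opposite directions by limma, beside 6 at an unadjusted p under 0.05 with ABA. The called rises had a median of 1.45 without ABA and 0.93 with it, and the called falls -1.41 and -0.89. The calls were chosen in the first comparison, which favours larger medians there. What share of the difference between these medians comes from that choice was not tested.

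Named genes of each group were seen again with ABA present. CCOAMT changed by 5.40 without and 7.19 with ABA, LCR67 by 5.50 and 6.74, and BGLU27 by 4.32 and 6.12. UGT73D1 gave 6.23 and 6.38, UGT73C7 5.15 and 5.19, and IAGLU 2.88 and 2.93. TUB5 gave -2.34 and -2.46, PORB -2.85 and -3.15, and DPE1 -2.42 and -2.62. Other genes had smaller values with ABA, among them CCR2 at 4.81 and 0.90, EFR at 1.28 and 0.12, EXLB1 at 2.06 and -0.77, and CHI at 7.52 and 4.1. The limma interaction test, of the difference itself, passed for 0 of these 13 genes at an adjusted p under 0.05, with the smallest at 0.114 for EXLB1.

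The difference between the effects of DFPM with and without ABA passed the limma interaction test for 54 probe sets (0.375%), beside 936 at an unadjusted p under 0.05, and for 202 with the block. When arrays 1 and 2 were averaged in a fit with the block, it passed for 0, beside 924 at an unadjusted p under 0.05. Of the 54, 30 were also called for DFPM without ABA, and 11 of those name 1 gene. BCAT4 was among them, with -5.26 ± 0.43 without ABA and -0.34 with it (adjusted p of the difference = 0.0068), and all 11 had the smaller effect with ABA, which the choice of genes called without ABA favours. The mean level of BCAT4 with ABA alone was 2.49, already near the bottom of the scale, so a further fall could not be measured there.

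**Figure D5:**
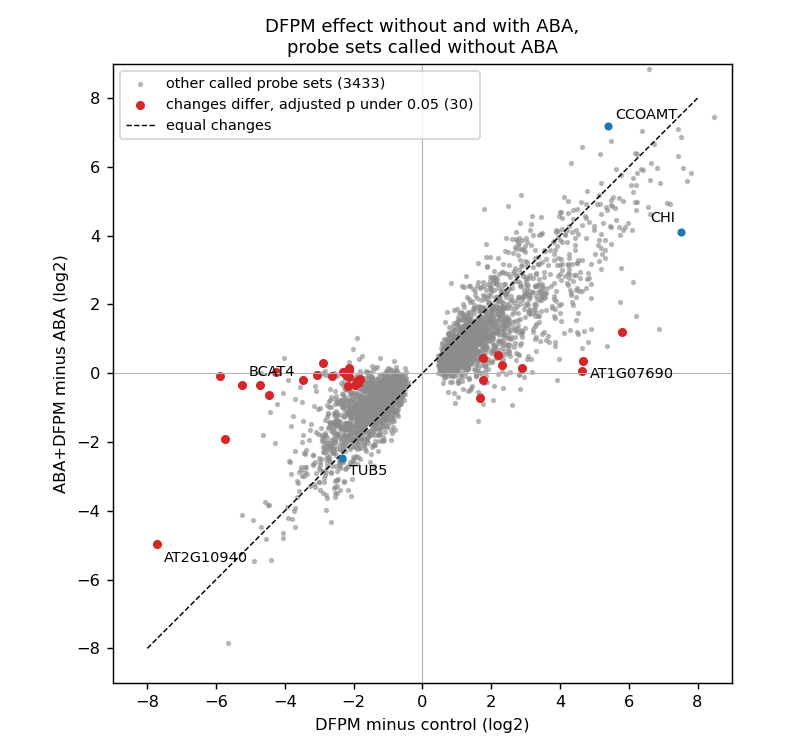
Change with DFPM in the absence of ABA (horizontal axis, DFPM minus control, log2) against that in its presence (vertical axis, ABA+DFPM minus ABA, log2) for the 3463 probe sets called without ABA. The 30 red points are those whose 2 changes differed in the interaction test, the blue points are CCOAMT, CHI and TUB5, the dashed line marks equal changes, and most points lie at the upper right or lower left, where both signs are the same (3364 of 3463).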

How the data were processed

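RNA from 12 samples of whole seedlings was hybridised to 1-colour Affymetrix ATH1 arrays after Trizol extraction, RNeasy purification and biotin labelling, per the labels' protocols. The deposited values are log2 expression per probe set, for which the submitters' processing notes list GCRMA and affy as the authors' tools, with version and settings not given in the sources used here. GCRMA corrects background and normalizes between arrays, so levels near the bottom of the scale (2.14) carry little information on size. The deposited normalization was kept and no detection calls were used. Array medians of the 6 arrays lay from 5.30 to 5.60, and precision is limited by there being 3 arrays per group.

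Of 22810 probe sets 64 Affymetrix controls were left out, and 14401 with at least 3 of 12 arrays at log2 4 were kept. Names, but no coordinates, came from the platform table and from RefSeq (TAIR10.1): 13513 of 22746 probe sets named 1 gene, 503 several and 8730 were unnamed here, and those were tested but not described. A gene with several probe sets is described from that with the highest mean.

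Groups were compared in R 4.3.3 with limma 3.58.1 and statmod 1.5.0, using lmFit and eBayes on all 12 arrays without covariate, two-sided, with Benjamini-Hochberg adjustment over all 14401 probe sets in each comparison and a threshold of 0.05. The method was tested on simulated data with arrays drawn independently, so that test does not cover deviations shared by arrays of the same number. Tables and figures were made in Python 3.11.15 (numpy 2.4.6, pandas 2.3.3, matplotlib 3.10.9). Every group uses the same array numbers in its titles. In each of 18 same-number pairs the deviations from group means were correlated (r from 0.426 to 0.802), which meets the rule of r over 0.1 in every pair for giving a fit with the number as a block beside the unblocked one, although the labels leave the meaning of a number unstated. Arrays numbered 1 and 2 of different groups were also correlated (r from 0.380 to 0.701).

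The members, gene lists and rule for named genes were chosen with earlier results of these data known. Of 47 lists 42 had a measured member, and they held 481 matched and 353 measured genes. Lists are described by counts and medians and were not tested. Their members were matched by symbol, synonym or description, and 53 false matches were removed by hand. The rule named the 25 largest called rises and falls with non-overlapping groups, up to 6 called members per list and direction, every member of lists with at most 6 measured, and up to 5 genes per direction of the interaction. It covers 230 genes, and 134 of them are given with values, chosen after those were seen. The rest are in the counts. Other list members and 12 further lists were added after their values were seen. So were 40 genes per direction that carry a symbol, taken from called genes with non-overlapping groups. The alternatives tried were the 6 arrays alone, the array number as a block, filters, quantile normalization, a floor, another variance prior, averaged arrays, a fold threshold and arrays left out.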

Additional observations from a re-analysis of the deposited data

Results flagged for a closer look

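For 8 genes the change with DFPM differed with and without ABA in the limma interaction test, and the difference given is the change with ABA minus that without. Of these, 3 rose after DFPM alone and hardly changed when ABA was present. AT1G07690 was 2.82, 2.43 and 2.42 in control and 6.81, 6.76 and 8.14 after DFPM, a change of 4.68 ± 0.34, beside 0.35 with ABA, a difference of -4.33 (adjusted p = 0.0027). AT5G02230 changed by 2.9 and 0.15, a difference of -2.75 (adjusted p = 0.0434), and AT4G30490 by 1.76 and 0.45, a difference of -1.31 (adjusted p = 0.0471). The mean of AT5G02230 was 5.51 in control, 8.41 with DFPM, 10.90 with ABA and 11.05 with both, so ABA alone had already taken it above the level reached with DFPM.

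The other 5 fell after DFPM alone. BCAT4 had a difference of 4.91 and AT5G62280 one of 3.19, with changes of -2.89 without and 0.30 with ABA (adjusted p = 0.0151). AT1G14960 changed by -3.07 and -0.06, a difference of 3.02 (adjusted p = 5.26e-04), and AT1G33170 by -2.32 and 0.04, a difference of 2.35 (adjusted p = 0.0039). The mean with ABA alone and the mean with DFPM alone were 2.49 and 2.25 for BCAT4, 4.15 and 4.46 for AT5G62280, 3.98 and 3.87 for AT1G14960, and 2.22 and 2.20 for AT1G33170, so each of these 4 genes was already low with ABA alone. All 8 were chosen among genes called without ABA, which favours a smaller effect with ABA. AT2G10940 was 10.80, 11.29 and 10.73 in control and 3.33, 3.33 and 3.03 after DFPM. It fell by 7.71 ± 0.22 without ABA and by 4.98 with it, from a mean of 8.38 with ABA to 3.40 with both, a difference of 2.73 (adjusted p = 0.0039), and its level with DFPM was near the bottom of the scale in both settings.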

How the results depend on the processing

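Of 156 genes named with values, 114 passed the limma test, all 156 kept their direction under each of the 22 alternatives in which they were measured, and 84 of the 114 kept their call without any 1 array. With the replicate block 37 more of the 156 passed and 0 lost a call, and beyond those given beside their genes the block changed no other call except for the markers RCA, LHCB4.1 and EXPA7 (adjusted p = 0.0210, 0.0156 and 0.04997). With arrays 1 and 2 averaged in the blocked fit, 12 of these 37 passed and 12 of the 114 lost their call. The block gave 6821 probe sets called (3008 higher, 3813 lower), 206 list members called in either direction beside 93, and in the lists 25 defence and 40 detoxification genes higher and 39 growth and 29 nuclear photosynthesis genes lower. It gave 4486 calls for ABA+DFPM against ABA and 202 for the interaction. Without replicate 3 of every group these counts were 7146 (3202 and 3944), 198, 30, 43, 40, 29, 5276 and 1251. With only the 6 control and DFPM arrays 2250 probe sets passed, 993 of them lower, and 6 nuclear photosynthesis genes. The interaction count was 21 with a stricter filter, 99 with low values set to a floor and 0 with numbers 1 and 2 averaged. Leaving out 1 array at a time gave 1981 to 4032 calls (1114 to 2027 higher, 867 to 2005 lower), 61 to 120 list members, 13 to 20 defence and 20 to 28 detoxification genes higher, 14 to 24 growth and 4 to 18 nuclear photosynthesis genes lower, 904 to 2280 calls with ABA, and 27 to 91 interactions. The low ends for DFPM against control came without control array 2. The cause was not tested. All other counts stayed within 1.5 times of those reported, and the share of calls with the same sign with ABA ran from 91.9% to 97.7%. Signals near the bottom of the scale limit the size of changes: the lower mean lay under log2 4 in 208 of the called rises and 296 of the called falls.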

Other observations

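Some gene families outside the defence, detoxification, growth and photosynthesis lists were looked up after their values had been seen, so their counts are a description. Of 6 measured glutamate receptor-like channel genes, which carry calcium in response to amino acids, 5 rose and 0 fell, with a median of 1.98. Their median control level was 3.52, and with low values set to a floor the median change was 1.02. GLR2.8 lay at 2.14 on each control array and at 4.33, 3.35 and 5.34 after DFPM, and GLR2.9 went from 2.19, 2.14 and 2.19 to 4.54, 4.59 and 7.32 (3.3 ± 0.78, adjusted p = 0.0134). Genes this low in control passed the minimum level only through other arrays, so a fall could not be seen in them. Of the genes of autophagy, of vacuolar sorting and of secretion, 3 of 11, 4 of 11 and 4 of 12 measured rose, with 0 called lower in each. ATG8H, an autophagosome protein gene, rose by 1.53 ± 0.18 (adjusted p = 4.99e-04), from 8.50, 8.92 and 8.67 to 10.14, 10.17 and 10.36. VPS60.1, of the machinery that sorts membrane proteins to the vacuole, rose by 1.85 ± 0.27 (adjusted p = 0.0014), from 8.78, 8.62 and 8.35 to 10.39, 10.48 and 10.45. SEC1B, a secretion gene, rose by 3.14 ± 0.70 (adjusted p = 0.0105), and the exocyst subunit gene SEC6 by 1.04 ± 0.23 (adjusted p = 0.0096). Among 8 measured chaperone and protein folding genes 6 rose and 0 fell. ATCRT1, a calreticulin gene of the endoplasmic reticulum, went from 7.19, 7.27 and 7.53 to 8.76, 8.27 and 8.93 (1.32 ± 0.21, adjusted p = 0.0019). For the autophagy, vacuolar sorting, secretion, folding and receptor families 0 members were called lower by limma, and at an unadjusted p under 0.05 the counts lower were 0, 1, 0, 1 and 0.

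Of 11 measured sugar transporter genes 3 fell and 1 rose, of 7 nitrate and peptide transporter genes also 3 fell and 1 rose, and of 7 genes of RALF-like signalling peptides 2 fell and 0 rose, beside 3 and 1 with the block and 2 and 1 at an unadjusted p under 0.05. SWEET1 changed by -3.69 (adjusted p = 0.0238), a call that ended without any 1 control array (adjusted p up to 0.0652). The rise of SWEET2, 2.15 (adjusted p = 0.0451), lost its call when any of 10 single arrays was left out (adjusted p up to 0.112). SWEET11, a sucrose exporter gene of phloem loading, was 12.57, 12.62 and 12.63 in control and 10.85, 10.72 and 9.03 after DFPM (-2.41 ± 0.47, adjusted p = 0.0057). TMT2, a sugar importer gene of the vacuole, fell by 1.73 ± 0.32 (adjusted p = 0.0044). NRT2.5, a nitrate transporter gene, went from 5.96, 4.27 and 6.30 to 2.92, 2.16 and 2.35 (-3.04 ± 0.44, adjusted p = 0.0013). AT1G59740, of the same list, rose by 1.41 (adjusted p = 0.0072). Of the RALF-like genes RALFL34 and RALFL24 fell by 2.56 ± 0.28 and 1.57 ± 0.20 (adjusted p = 3.84e-04 and 8.36e-04), and the first was 9.38, 9.89 and 9.44 and then 6.94, 7.09 and 7.02. RALFL18 gave 3.09 and was called with the block only (adjusted p = 0.0238). Of 5 measured subtilase genes, which encode secreted proteases, 2 rose and 2 fell. SBT3.5 went from 4.91, 4.05 and 7.92 to 9.85, 9.94 and 11.46 (4.79 ± 0.87, adjusted p = 0.0043), and SBT1.3 from 7.0, 7.34 and 8.24 to 4.85, 4.45 and 3.88 (-3.14 ± 0.53, adjusted p = 0.0028). Of 7 tetraspanin genes TET8, a marker of plant exosomes, rose by 1.26 ± 0.16 (adjusted p = 6.94e-04), and TET7 fell by 1.49 ± 0.34 (adjusted p = 0.0114). In every gene of this paragraph for which arrays are given the groups did not overlap.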
